A study of Mus musculus with 4 samples.

Results

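The genes *Spry1*, *Spry2*, *Spry4*, *Spred1*, *Spred2*, *Dusp4*, *Dusp6*, *Etv4* and *Etv5* are known to be induced by ERK signalling and to act on it in turn, and they were followed here in mouse sympathetic ganglia (SG). They were taken as a fixed list of names, drawn up with earlier results of these data known, and matched by symbol to the Entrez identifiers of the deposited tables. All 9 were listed in every library, among 15275 genes listed in all 4 libraries and 17667 listed in at least 1. The RNA came from SG at thoracic levels T1 to T4, which send fibers to interscapular brown fat, of C57BL/6 mice aged 12 weeks and kept for 1 day at 5 °C. Each genotype gave 1 library from ganglia pooled over several mice, apart from WT, which gave 2 (WT_1 and WT_2). AdNTF3-Tg mice carry a transgene for the neurotrophin NT-3 under the adiponectin promoter, which is active in adipocytes. TRKC+/- mice are haploinsufficient for TRKC, the NT-3 receptor encoded by *Ntrk3*. Both mutants were compared with WT in the study, in separate cohorts. The labels do not say which WT library belongs to which cohort, so each mutant library was set against both.

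NT-3 and the other neurotrophins bind TRK receptor tyrosine kinases, which switch on RAS and then the kinases RAF, MEK and ERK. Active ERK raises the transcription of a small group of genes that restrain the same cascade: Sprouty and SPRED proteins act on it upstream at the level of RAS and RAF, and DUSP phosphatases remove the activating phosphates from ERK itself. The PEA3 transcription factors ETV4 and ETV5 are induced by the same signal and carry it on in the nucleus, and in neurons they are known as factors that respond to neurotrophic ligands. mRNA levels of these genes are therefore widely read as a sign of how strongly receptor kinases signal, although protein phosphorylation was not measured here.

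The libraries held between 8665955 and 8894985 reads on genes. Sympathetic neuron markers were abundant in all 4 libraries, with a summed level of 9980 FPKM in WT_1, 9830 in WT_2, 9480 in AdNTF3-Tg and 10100 in TRKC+/-. FPKM are the reads of a gene per kilobase of its transcript and relative to all reads on genes in the library. All markers used were listed in every library, apart from *Myh1*. Markers of other cells also varied between libraries. The skeletal muscle list summed to 99.9 FPKM in WT_1, 3.37 in WT_2, 35.3 in AdNTF3-Tg and 46.0 in TRKC+/-, and the brown adipocyte list to 366, 332, 269 and 200 FPKM in the same order. Summed levels of the remaining lists lay between 2070 and 2390 FPKM for satellite glia, 538 and 570 for Schwann cells, 223 and 295 for fibroblasts, 35.5 and 41.6 for macrophages and 26.1 and 30.8 for endothelial cells. *Ntrk3*, the gene targeted in TRKC+/- mice, was at 2.45 FPKM in WT_1, 2.52 in WT_2, 2.32 in AdNTF3-Tg and 2.72 in TRKC+/-. From 91 reads in TRKC+/-, beside 78 in WT_1 and 83 in WT_2, the log2 ratio to the reads of both WT libraries was 0.15 [-0.23, 0.53]. These reads thus did not show a lower level of the targeted gene, and where in the gene the mutation lies was not examined, so that sample is called the library labelled TRKC+/-. For *Ntf3*, the NT-3 gene, the ganglia gave 2 reads in that library and none of the other 3 tables lists it, so that the level of the ligand in the ganglia was not measurable. In bulk ganglia, fewer cells of a type and less RNA per cell cannot be told apart.

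The feedback genes were at low to moderate levels in the ganglia. By mean FPKM over the 4 libraries, *Spred2* was highest (18.2 FPKM), followed by *Etv5* (14.5), *Dusp6* (13.4), *Spry4* (10.6), *Spry2* (9.86), *Spred1* (9.49), *Spry1* (3.73), *Dusp4* (1.21) and *Etv4* (0.738). *Spred2* thus stood at percentile 70.7 of all genes listed in every library and *Etv4* at percentile 13.8. Neighbours in this order had overlapping ranges in 3 places. *Etv5* was above *Dusp6* in 3 of 4 libraries, *Spry4* above *Spry2* in 3 of 4, and *Spry2* above *Spred1* in 2 of 4. Every other pair of neighbours kept its order in all 4 libraries. For each of the 9 genes, the deposited counts were whole numbers in every library.

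**Figure D1:**
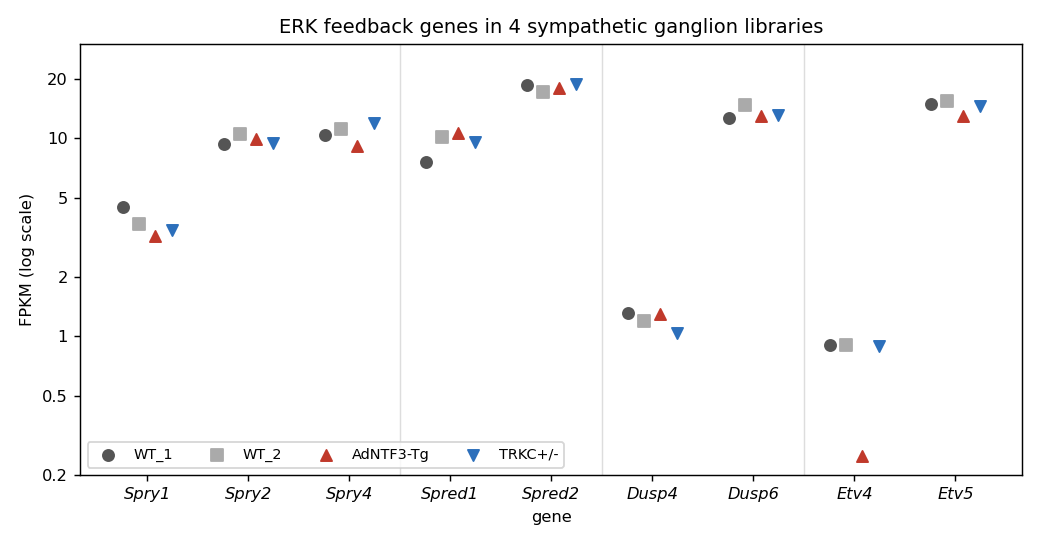
FPKM, on a log scale, of the 9 ERK feedback genes in the 4 libraries, 1 point per library (grey circles and squares: WT_1 and WT_2; red: AdNTF3-Tg; blue: the library labelled TRKC+/-), with vertical lines between gene families. The 4 points of most genes lie close together, and the *Etv4* point of AdNTF3-Tg (0.25 FPKM) lies well under the other 3.

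Of the 9 genes, *Etv4* alone differed from both WT libraries by the cutoff of the study, a log2 ratio of at least 0.5 in either direction. It was lower in AdNTF3-Tg, where 3.58% of all genes were lower by that rule. None was higher in AdNTF3-Tg (2.12% of all genes), and none was higher (1.78%) or lower (2.49%) in the library labelled TRKC+/-. No member differed by this much between the WT libraries, which 13.4% of all genes did. Ratios are log2 of FPKM plus 0.1, and the bracketed bounds given with them are exact 95% Clopper-Pearson intervals of the ratio of reads, which cover counting error only and not the spread between mice. With 1 library per mutant there was no test between genotypes. The median log2 ratio of the 9 genes to the mean of both WT libraries was -0.07 in AdNTF3-Tg and -0.05 in the library labelled TRKC+/-, beside 0.00 for all genes in each.

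*Etv4* and *Etv5* encode ETS transcription factors of the PEA3 family. *Etv4* (Entrez 18612; NCBIM37 chromosome 11, 101631056 to 101646685, minus strand) was at 0.91 FPKM in WT_1, 0.90 in WT_2, 0.89 in the library labelled TRKC+/- and 0.25 in AdNTF3-Tg. These levels rest on 18 reads in each of the first 3 libraries and on 5 reads in AdNTF3-Tg. The AdNTF3-Tg library thus stood apart from the other 3, which were nearly equal. Its level was 27.6% of the WT mean, with a log2 ratio of -1.53 [-3.66, -0.39] to WT_1 and -1.51 [-3.63, -0.36] to WT_2. From the reads alone, the log2 ratio to both WT libraries was -1.86 [-3.56, -0.50]. Passing the cutoff of 0.5 was more frequent among genes at the level of *Etv4*: of the 2523 genes with a mean under 1 FPKM, 12.1% were lower in AdNTF3-Tg than in both WT libraries by that cutoff. The share with a difference as large as that of *Etv4* was not computed. In the library labelled TRKC+/-, the log2 ratio of *Etv4* was -0.03 [-1.06, 0.99] to WT_1 and -0.01 [-1.03, 1.02] to WT_2, so that changes within these wide intervals were not detectable at this depth.

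*Etv5* (Entrez 104156; chromosome 16, 22381382 to 22439792, minus strand) was expressed at a much higher level, with 14.97 FPKM in WT_1, 15.38 in WT_2, 14.61 in the library labelled TRKC+/- and 12.96 in AdNTF3-Tg. It was read 494, 515, 493 and 432 times in these libraries. AdNTF3-Tg again held the lowest value, by a smaller margin: its level was 85.4% of the WT mean, and the log2 ratio was -0.21 [-0.41, -0.03] to WT_1 and -0.25 [-0.43, -0.06] to WT_2. The interval was below 0 against each WT library only for *Etv4* and *Etv5* among the 9 genes in AdNTF3-Tg, while 10.2% of all genes had intervals on the same side of 0 against both WT libraries. In the library labelled TRKC+/-, no member had such intervals, beside 4.46% of all genes, and *Etv5* was at 96.3% of the WT mean with a log2 ratio of -0.03 [-0.22, 0.14] to WT_1 and -0.07 [-0.25, 0.11] to WT_2. *Etv1*, the remaining PEA3 gene, was at 6.41 FPKM in WT_1, 7.17 in WT_2, 6.63 in AdNTF3-Tg and 7.11 in the library labelled TRKC+/-, so that AdNTF3-Tg lay between the WT libraries. The sympathetic neuron markers had a median log2 ratio of 0.02 in AdNTF3-Tg, with 5 of 10 above both WT libraries and 3 below. Their lower sum there came mainly from *Npy*, at 2181 FPKM beside 2733 in WT_1 and 2501 in WT_2.

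**Figure D2:**
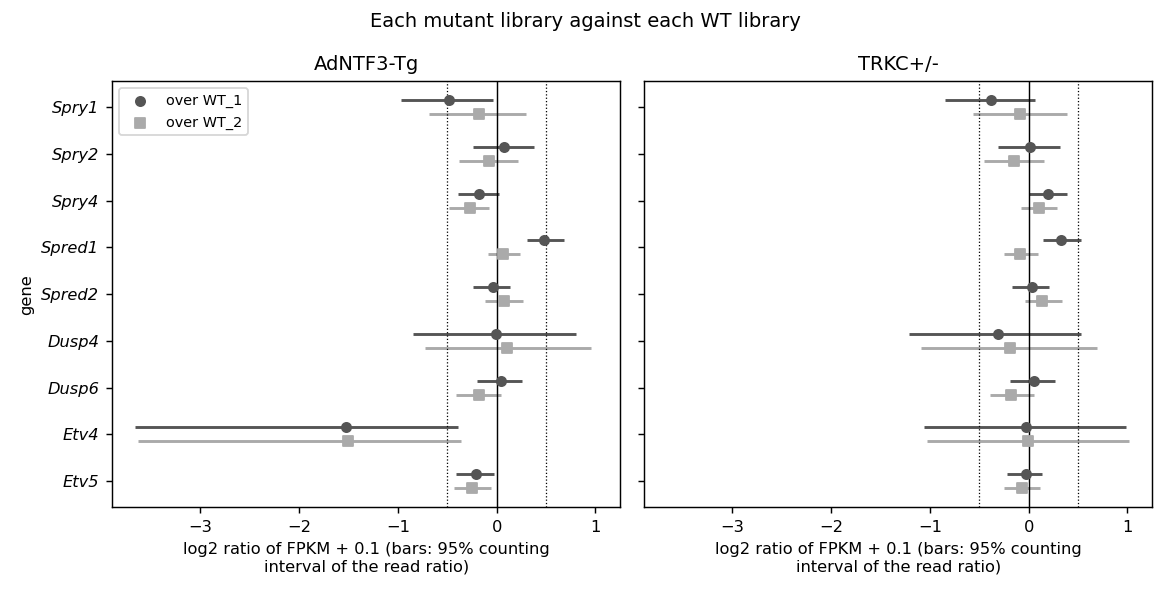
Log2 ratio of FPKM + 0.1 of each gene in AdNTF3-Tg (left) and in the library labelled TRKC+/- (right) to WT_1 (dark circles) and WT_2 (light squares), with 95% counting intervals of the read ratio as bars and dotted lines at the cutoff of 0.5. Both *Etv4* points of AdNTF3-Tg lie beyond the lower cutoff (-1.53 and -1.51) with wide bars, both *Etv5* bars of AdNTF3-Tg end below 0, and the *Spred1* points differ with the WT library used.

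The promoters of these genes were compared by their content of CpG dinucleotides. RefSeq promoter windows of 300 bases (around the start of the transcript, mostly before it) were available for 6 of the 9 genes, with 7 windows in all, and were located on NCBIM37 by exact match. *Etv4*, *Dusp4* and *Spry4* had no entry. The 7 windows held between 17 and 40 CpG, with a median of 28 beside a median of 7 over all 32851 promoters of the table, and a median GC content of 62.7% beside 52.7%. By CpG they stood between percentile 70.3 (*Spred2*) and percentile 96.5 (*Spred1*) of all promoters, and the windows of *Spred2* and *Dusp6* and the other window of *Etv5* were at percentile 73.5 or below. A window of *Etv5* (chr16:22439594-22439893, minus strand, 37 CpG, 74.0% GC), the PEA3 gene with most reads here, and the window of *Spred1* (chr2:116946557-116946856, plus strand, 40 CpG, 72.3% GC, before the start of the gene in GENCODE), the gene that varied most between the WT libraries, are shown 5′ to 3′ with each CpG in capitals. They are the densest of the 7 in CpG.
Etv5: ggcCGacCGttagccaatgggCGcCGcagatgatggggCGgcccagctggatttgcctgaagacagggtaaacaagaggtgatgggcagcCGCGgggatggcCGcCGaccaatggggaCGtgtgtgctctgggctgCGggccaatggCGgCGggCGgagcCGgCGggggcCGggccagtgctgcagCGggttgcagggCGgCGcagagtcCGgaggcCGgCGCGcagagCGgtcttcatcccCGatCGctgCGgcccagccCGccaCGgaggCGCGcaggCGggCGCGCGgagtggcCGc
Spred1: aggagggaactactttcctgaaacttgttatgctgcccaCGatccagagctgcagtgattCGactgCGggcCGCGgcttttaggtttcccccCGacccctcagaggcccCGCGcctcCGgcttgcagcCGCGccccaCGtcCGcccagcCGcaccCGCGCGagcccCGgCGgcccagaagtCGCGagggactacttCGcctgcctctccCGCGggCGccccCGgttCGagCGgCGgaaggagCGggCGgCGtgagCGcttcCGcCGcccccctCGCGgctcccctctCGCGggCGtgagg
Both windows are dense in CpG along most of their length. Motifs of factors linked to ERK were searched on both strands, allowing no mismatch. The ETS motif CCGGAAG was present in 8.86% of all promoters, the CIC motifs TGAATGAA and TGAATGGA in 1.3% and 1.21%, the CRE motif TGACGTCA in 1.79% and the serum response element in 0.0639%. None of the 7 windows held any of these letters, which says nothing of sites outside the windows, of looser matches or of other forms of a motif. For CIC, only the forms given were searched, so that its absence from the windows is not shown.

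Among the Sprouty genes, *Spry4* and *Spry1* were lowest in AdNTF3-Tg, by less than the cutoff, and *Spry2* lay between the WT libraries in both mutants. *Spry4* (Entrez 24066; chromosome 18, 38745922 to 38760922, minus strand) was at 10.37 FPKM in WT_1, 11.1 in WT_2, 9.16 in AdNTF3-Tg and 11.91 in the library labelled TRKC+/-, with 411, 447, 367 and 483 reads. The mutant libraries lay on opposite sides of the WT libraries. The log2 ratio of AdNTF3-Tg was -0.18 [-0.39, 0.02] to WT_1 and -0.27 [-0.48, -0.08] to WT_2. For the library labelled TRKC+/-, it was 0.20 [0.00, 0.39] to WT_1 and 0.10 [-0.08, 0.29] to WT_2. *Spry4* was the only member below both WT libraries in AdNTF3-Tg and above both in the library labelled TRKC+/-, a pattern by any amount that 8.33% of all genes showed. Between the mutants, the log2 ratio of AdNTF3-Tg to the library labelled TRKC+/- was -0.38 [-0.58, -0.18].

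*Spry1* (Entrez 24063; chromosome 3, 37538869 to 37543520, plus strand) was at 4.53 FPKM in WT_1, 3.68 in WT_2, 3.23 in AdNTF3-Tg and, in the library labelled TRKC+/-, 3.46. Reads numbered 96, 79, 69 and 75 in this order. Both mutants were below both WT libraries, but the WT libraries differed from each other about as much, with a log2 ratio of 0.29 [-0.13, 0.76] of WT_1 to WT_2. The log2 ratio of AdNTF3-Tg was -0.48 [-0.97, -0.04] to WT_1 and -0.18 [-0.68, 0.30] to WT_2. For the library labelled TRKC+/-, it was -0.38 [-0.85, 0.06] to WT_1 and -0.09 [-0.56, 0.39] to WT_2. *Spry2* (Entrez 24064; chromosome 14, 106291166 to 106296036, minus strand) varied least of the Sprouty genes, with 9.42 FPKM in WT_1, 10.54 in WT_2, 9.98 in AdNTF3-Tg and 9.51 in the library labelled TRKC+/-. Both mutants lay between the WT libraries, and the log2 ratio to the reads of both together was -0.01 [-0.28, 0.25] in AdNTF3-Tg. *Spry3*, the family member not in the set, was at 2.82 FPKM in WT_1, 3.10 in WT_2, 3.27 in AdNTF3-Tg and 3.63 in the library labelled TRKC+/-, above both WT libraries in both mutants by less than the cutoff.

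The SPRED genes encode Sprouty-related inhibitors that bind neurofibromin, a protein that turns RAS off. *Spred1* (Entrez 114715; chromosome 2, 116947110 to 117008015, plus strand) was at 7.60 FPKM in WT_1, 10.17 in WT_2, 10.65 in AdNTF3-Tg and 9.55 in the library labelled TRKC+/-, read 410, 560, 587 and 533 times. WT_1 alone was low, and the other 3 libraries were close to each other. The WT libraries differed here by a log2 ratio of -0.42 [-0.61, -0.23] of WT_1 to WT_2, the widest difference between them among the 9 genes. The log2 ratio of AdNTF3-Tg was accordingly 0.48 [0.31, 0.68] to WT_1 and 0.07 [-0.09, 0.24] to WT_2. In the library labelled TRKC+/-, it was 0.33 [0.15, 0.53] to WT_1 and -0.09 [-0.25, 0.09] to WT_2. Skeletal muscle markers were highest in WT_1, where *Spred1* was lowest, and their part in the *Spred1* values was not tested. *Spred1* was counted on 2 transcripts, and its transcript length varied slightly between libraries, unlike that of the other 8 genes.

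*Spred2* (Entrez 114716; chromosome 11, 19824378 to 19924029, plus strand) was the most even member. Its level was 18.56 FPKM in WT_1, 17.11 in WT_2, 18.04 in AdNTF3-Tg and 18.92 in the library labelled TRKC+/-, from 455, 425, 446 and 474 reads. The lowest and the highest library were apart by 0.14 on the log2 scale, the narrowest range of the 9 genes. The log2 ratio to the reads of both WT libraries was 0.01 [-0.16, 0.18] in AdNTF3-Tg. *Spred3* was about as even, at 13.95 FPKM in WT_1, 14.55 in WT_2, 14.79 in AdNTF3-Tg and 14.71 in the library labelled TRKC+/-.

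DUSP6 is a cytoplasmic phosphatase specific for ERK, and DUSP4 is a nuclear one that also acts on other MAP kinases. *Dusp6* (Entrez 67603; chromosome 10, 98725865 to 98730122, plus strand) was at 12.66 FPKM in WT_1, 14.8 in WT_2, 13.01 in AdNTF3-Tg and 13.08 in the library labelled TRKC+/-. Reads numbered 304, 360, 315 and 321, and both mutants lay between the WT libraries. The log2 ratio to the reads of both WT libraries was -0.08 [-0.28, 0.11] in AdNTF3-Tg. *Dusp4* (Entrez 319520; chromosome 8, 35870351 to 35882948, plus strand) was at 1.31 FPKM in WT_1, 1.20 in WT_2, 1.30 in AdNTF3-Tg and 1.04 in the library labelled TRKC+/-. It rested on 27, 25, 27 and 22 reads. The library labelled TRKC+/- was the lowest, at 82.9% of the WT mean, but the log2 ratio of -0.31 to WT_1 had an interval from -1.21 to 0.53. At this depth, differences in *Dusp4* within this interval were not detectable.

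By any amount, 4 of the 9 genes (*Etv4*, *Etv5*, *Spry1* and *Spry4*) were below both WT libraries in AdNTF3-Tg, where 34.0% of all genes were, and *Spred1* was above both, where 33.7% were. In the library labelled TRKC+/-, *Dusp4*, *Etv4*, *Etv5* and *Spry1* were below both WT libraries, as were 30.8% of all genes, and *Spred2* and *Spry4* were above both, as were 31.9%. *Etv4*, *Etv5* and *Spry1* were below both WT libraries in both mutants, as were 16.1% of all genes. The 2 mutants share the WT libraries in these counts. For *Spry4*, *Spred1*, *Spred2*, *Dusp6* and *Etv5*, the 5 genes with at least 300 reads in every library, the intervals against the reads of both WT libraries reached at most 1.33-fold lower and 1.34-fold higher in AdNTF3-Tg. In the library labelled TRKC+/-, they reached at most 1.21-fold lower and 1.24-fold higher. The spread between mice, which these bounds do not cover, is unknown.

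The genes around the feedback loop were followed in 6 lists with 112 genes listed in every library. Relatives of the members had a median log2 ratio of 0.05 in AdNTF3-Tg and 0.09 in the library labelled TRKC+/- over 11 genes. Among them *Dusp2*, a nuclear phosphatase, was at 1.14 FPKM in the library labelled TRKC+/- and at 0.22 in WT_1, 0.43 in WT_2 and 0.36 in AdNTF3-Tg, from 16, 3, 6 and 5 reads. In the library labelled TRKC+/-, it was higher than both WT libraries by the cutoff, as were 1.78% of all genes. Its log2 ratio was 1.95 [0.57, 4.80] to WT_1 and 1.23 [-0.02, 3.05] to WT_2. *Dusp9* was lower in the library labelled TRKC+/- on 2 reads, beside 7 in WT_1 and 4 in WT_2, with a log2 ratio to the reads of both of -1.48 [-4.70, 0.71]. *Dusp7*, another phosphatase of ERK, was at 8.36 FPKM in the library labelled TRKC+/- and at 6.16 in WT_1, 6.18 in WT_2 and 7.04 in AdNTF3-Tg. Its log2 ratio of 0.43 [0.15, 0.73] to each WT library was under the cutoff.

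None of the 22 receptor kinases and none of the 26 adaptors, RAS proteins and kinases passed the cutoff in either mutant, where between 1.78% and 3.58% of all genes did in each direction, so that few or none would be called at that share. Between the WT libraries, 18.2% of the receptor kinases were apart by the cutoff, beside 13.4% of all genes. *Ntrk2*, which encodes the BDNF receptor TRKB, was at 32.01 FPKM in WT_1, 31.72 in WT_2, 33.04 in AdNTF3-Tg and 32.83 in the library labelled TRKC+/-. *Ngfr*, which encodes the neurotrophin receptor p75, was at 316.13 FPKM in WT_1, 360.19 in WT_2, 339.82 in AdNTF3-Tg and 317.55 in the library labelled TRKC+/-. *Mapk3*, which encodes ERK1, was at 459, 474, 455 and 467 FPKM in the same order. Of the 15 other negative regulators, none passed either. Among them *Cic*, the ETS gene repressor that ERK inactivates, was at 29.56 FPKM in WT_1, 28.75 in WT_2, 34.1 in AdNTF3-Tg and 33.19 in the library labelled TRKC+/-. Of 17 ligands, *Igf1* was higher in AdNTF3-Tg by the cutoff. Among the highest means were those of *Dusp1*, *Spred3* and *Dusp10* among the relatives, *Ret* and *Ntrk2* among the receptors, *Fgf1*, *Pdgfa* and *Nrg1* among the ligands, *Mapk3* and *Map2k1* in the cascade, *Pea15a*, *Cic* and *Rasa3* among the negative regulators, and *Vgf*, *Ccnd1* and *Ier3* among the other ERK-inducible genes. None of these genes passed the cutoff in either mutant. Over all 6 lists, 1 gene was higher in AdNTF3-Tg, and 1 was higher and 1 lower in the library labelled TRKC+/-.

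**Figure D3:**
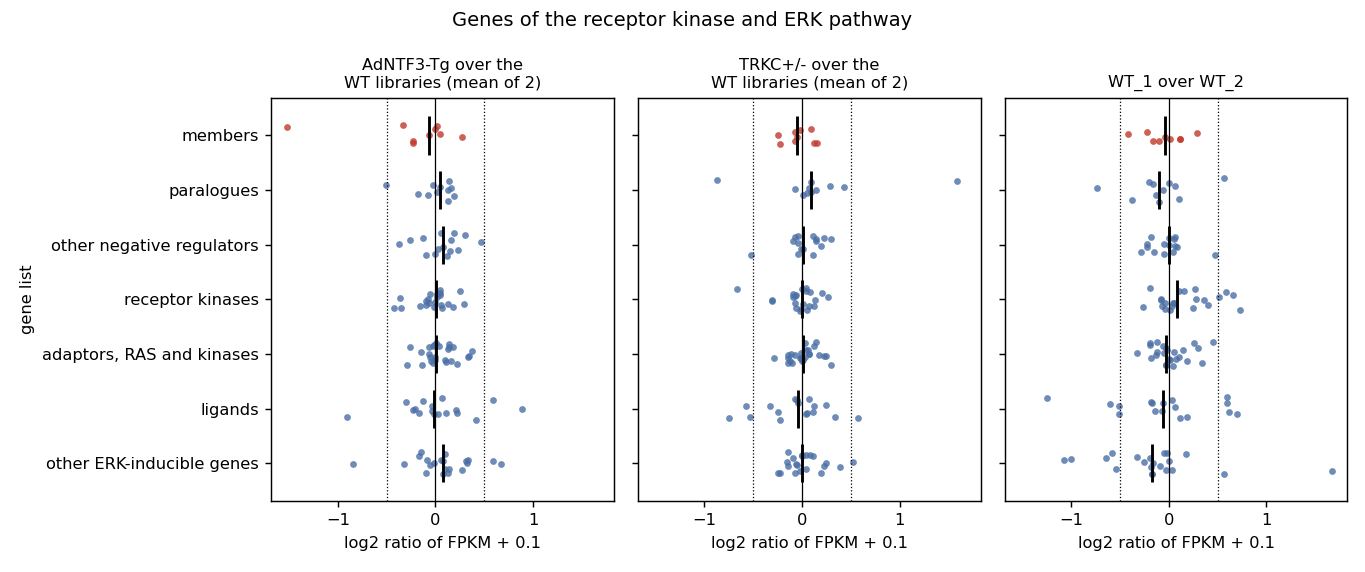
Log2 ratios of FPKM + 0.1 for the feedback genes (members, red) and the 6 other lists of the pathway (blue), 1 point per gene: AdNTF3-Tg and the library labelled TRKC+/- over the WT libraries (mean of the ratios to both), and WT_1 over WT_2. Black bars are list medians and dotted lines the cutoff of 0.5. Medians lie close to 0 in both mutants. In the right panel the feedback genes stay within the dotted lines, as do the adaptors, RAS proteins and kinases and the other negative regulators. Outside them lie 8 of 17 ligands, 7 of 21 other ERK-inducible genes, 4 of 22 receptor kinases and 2 of 11 relatives (paralogues).

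No member was apart between the WT libraries by the cutoff, a share to be read beside the 13.4% of all genes and the 7.26% of genes whose mean reached 1 FPKM that were. The members' absolute log2 ratio of WT_1 to WT_2 had a median of 0.12 and a maximum of 0.42, beside a median of 0.15 for all genes and 0.13 for genes whose mean reached 1 FPKM. Of the 17 ligands, 8 (47.1%) were apart by the cutoff, and none of the adaptors, RAS proteins and kinases or of the other negative regulators were. Of the 21 other ERK-inducible genes, mainly immediate early genes, 7 (*Fos*, *Fosb*, *Junb*, *Egr2*, *Egr3*, *Ier5* and *Arc*, 33.3%) were apart by the cutoff, and 5 of these were lower in WT_1. *Fos*, which codes for a subunit of AP-1, was at 18.08 FPKM in WT_1, 28.23 in WT_2, 28.27 in AdNTF3-Tg and 23.2 in the library labelled TRKC+/-. WT_1 was thus the lowest library for *Fos* as it was for *Spred1*. These genes were named after their values were seen, and no test of the difference between the lists was made. Over the 4 libraries, the range between the lowest and the highest value had a median of 0.31 on the log2 scale for the members and for all genes alike.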

How the data were processed

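RNA was extracted with Tri-reagent, and mRNA was isolated on oligo(dT) beads. The methods of the study name SOAPnuke, HISAT2 and the build mm9 for single-end reads, whereas the processing notes of the submitters name RSEM and mm10. The strand setting is not given in the sources used here. The authors deposited an expected count per gene, which need not be whole, and an FPKM value that scales it to transcript length and reads on genes. From the deposited tables, log2 ratios of FPKM plus 0.1 were computed for the 15275 genes listed in all 4 libraries, and the expected counts, rounded to whole numbers, gave exact Clopper-Pearson 95% intervals (SciPy 1.17.1). Such intervals hold only the error of counting, and reads from PCR are not independent molecules. Depth was 8665955 to 8894985 reads. A gene counted as higher or lower at a log2 ratio of at least 0.5 in size against both WT libraries, and no test between genotypes was run.

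The members and lists were chosen with earlier results of these data known. Named were all members, their relatives, *Ntrk2*, *Ntrk3*, *Ngfr* and *Ntf3*, list genes whose mean reached 1 FPKM past the cutoff, the 3 highest genes of a list, and the 3 genes nearest to the most variable member. Some genes named by this rule are not reported here. Symbols came from a RefSeq table on GRCm38.p6 (17619 identifiers, 99.7%) and positions from GENCODE on NCBIM37. Alternatives were other pseudocounts, a filter on low FPKM, unlisted genes as 0, centring on the median, TMM scaling of the counts (edgeR 4.0.16, log2 CPM with a prior count of 2) and leaving out each WT library. The intervals and calls were tested on simulated data that held counting error only, with no spread between mice. Large changes were placed in genes with many reads, so that calls of small changes or of genes with few reads were not tested.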

Additional observations from a re-analysis of the deposited data

Results flagged for a closer look

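*Spry4* was noted because the mutant libraries lay on opposite sides of both WT libraries. It was at 9.16 FPKM in AdNTF3-Tg and 11.91 FPKM in the library labelled TRKC+/-, beside 10.37 in WT_1 and 11.1 in WT_2, and the log2 ratio of AdNTF3-Tg to the library labelled TRKC+/- was -0.38. With 1 library per mutant the difference was not tested, and the same order by any amount was seen in 8.33% of all genes.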

How the results depend on the processing

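With 1 library per mutant, no error between mice is known, and genes with few reads, such as *Etv4* and *Dusp4*, are limited by counting. The number of members lower in AdNTF3-Tg was 0 once genes below a mean of 1 FPKM were removed, since *Etv4* was under that filter. It was 1 with the other pseudocounts and scalings and without either WT library. The mean log2 ratio of *Etv4* in AdNTF3-Tg was -0.61 with a pseudocount of 1 and -1.82 with 0.01. Of the 18 member ratios, 0 changed sign to 2 decimals under another pseudocount or scaling, and 7 (*Spry2*, *Spred1* and *Dusp6* in the library labelled TRKC+/-, and *Spry2*, *Spred2*, *Dusp4* and *Dusp6* in AdNTF3-Tg) had a sign that depended on the WT library left out. No paired analysis was possible because the mutants have 1 library each.

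The shares of all genes past the cutoff depended more on these choices. The shares higher and lower in AdNTF3-Tg were 2.12% and 3.58%, and moved to 0.295% and 0.786% with a pseudocount of 1, to 0.706% and 1.90% with the filter, to 6.21% and 7.10% without WT_1 and to 5.62% and 8.24% without WT_2. Those for the library labelled TRKC+/- were 1.78% and 2.49%, and moved to 0.282% and 0.406%, 0.541% and 1.10%, 6.74% and 5.92%, and 4.63% and 6.06% under the same settings. With unlisted genes taken as 0, the shares higher were 3.96% and 3.82%. The WT libraries were apart in 13.4% of genes, 4.14% with a pseudocount of 1 and 7.26% with the filter. The share for genes under 1 FPKM was added after the data were seen.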

Other observations

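Of the 112 genes in the other pathway lists, those past the cutoff in AdNTF3-Tg included *Igf1*, which was higher, and *Epha4*, which was lower. By the same rule, 2.12% of all genes were higher and 3.58% lower, so that a few of 112 genes would be called at that share. *Igf1*, an insulin-like growth factor, was at 1.59 FPKM in AdNTF3-Tg, 1.02 in WT_1, 0.64 in WT_2 and 1.25 in the library labelled TRKC+/-, from 58, 38, 40 and 51 reads. Its transcript length differed between libraries, and the log2 ratio of AdNTF3-Tg to the reads of both WT libraries was 0.56 [0.05, 1.07], smaller than the mean ratio of 0.89 in FPKM. The intervals to WT_1 alone [-0.03, 1.22] and to WT_2 alone [-0.06, 1.16] included 0. *Epha4*, named after its values were seen, was lower in AdNTF3-Tg by the cutoff, with 9 reads beside 20 in each WT library and 16 in the library labelled TRKC+/-. Its mean over the 4 libraries was 0.295 FPKM. The log2 ratio of AdNTF3-Tg to the reads of both WT libraries was -1.16 [-2.39, -0.09], and the intervals to WT_1 alone [-2.49, 0.02] and to WT_2 alone [-2.46, 0.05] included 0.

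Genes whose pattern over the 4 libraries was nearest to that of *Spred1*, the most variable member whose mean reached 1 FPKM, were *Spast* (distance 0.028), *Vgll3* (0.037) and *Socs2* (0.043), among 12752 genes. The distance is the Euclidean one between log2 values centred on the mean of each gene. *Spast* was at 8.28 FPKM in WT_1, 11.15 in WT_2, 11.71 in AdNTF3-Tg and 10.24 in the library labelled TRKC+/-. *Socs2* was at 13.35, 17.22, 18.09 and 16.17 FPKM in the same order, so that WT_1 was the lowest library for both, as for *Spred1*.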
